A study of Mus musculus with 12 samples.

Results

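The 6 mitochondrially encoded subunits of respiratory chain complexes III, IV and V were followed from RNA to ribosome footprint in mouse melanoma cells with and without knockdown of Osgep. They are mt-Cytb of complex III, mt-Co1, mt-Co2 and mt-Co3 of complex IV, and mt-Atp6 and mt-Atp8 of complex V. Members were taken by name and matched to their Ensembl gene identifiers, which gave 6 of the 55487 rows in the series' count tables. The rule uses the genes' names alone. The cells were B16F10, a melanoma line of C57BL/6 origin, transduced with a control hairpin (shRNA Ctrl, here shCtr) or with hairpin number 2 against Osgep (shRNA OSGEP#2, here shOSGEP). Both groups were bulk cultures of this line in the same medium, and for footprinting both were given cycloheximide and their ribosomes were pulled down with a puromycin analogue. Each group had 3 replicates, and each replicate gave a library of ribosome-protected fragments (RPF) and a library of total RNA, which makes 12 libraries. A single hairpin in a single line limits how far the values can be carried to other models.

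Mitochondria hold their own small genome, which encodes 13 proteins, all of them core subunits of oxidative phosphorylation. Their mRNAs are cut from long transcripts of the mitochondrial genome, have almost no leader, and are read inside the organelle by mitochondrial ribosomes, which cycloheximide does not inhibit. Cytochrome b (mt-Cytb) is the heart of complex III, mt-Co1 to mt-Co3 form the catalytic core of cytochrome c oxidase, and mt-Atp6 forms the proton path of ATP synthase, with mt-Atp8 as its small partner subunit. Each of these complexes is completed by subunits made from nuclear genes. Osgep carries the enzymatic activity of the KEOPS complex. This complex places N6-threonylcarbamoyladenosine next to the anticodon of cytosolic tRNAs that read codons beginning with A (ANN codons). In mitochondria the same modification is made by a separate enzyme, Osgepl1.

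The first 30 coding bases of each member are shown because 30 bases is about the length of a footprint, and because they show how far a footprint of each gene can be told from nuclear DNA. ANN codons are in capitals, and all sequences are the plus strand of the mitochondrial genome in GRCm38, with gene ends from GENCODE M21.
mt-Cytb, chrM:14145-14174: ATGACAAACATAcgaAAAACAcacccatta
mt-Co1, chrM:5328-5357: ATGttcATTAATcgttgattattctcaACC
mt-Co2, chrM:7013-7042: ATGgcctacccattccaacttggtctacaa
mt-Co3, chrM:8607-8636: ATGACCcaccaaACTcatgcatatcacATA
mt-Atp6, chrM:7927-7956: ATGAACgaaAATctatttgcctcattcATT
mt-Atp8, chrM:7766-7795: ATGccacaactagatACAtcaACAtgattt
The stretch of mt-Cytb had 0 exact matches on the nuclear chromosomes of GRCm38, and each of the other 5 had 1. For mt-Co2, mt-Co3, mt-Atp6 and mt-Atp8 that match lay on chromosome 1.

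Over whole genes the difference between members was as plain. All 30-base windows of mt-Co2, mt-Atp8, mt-Atp6 and mt-Co3 (100%) also occur on chromosome 1. For mt-Co1 64.8% of windows had a nuclear match, 29.7% on chromosome 1, and for mt-Cytb 7.35% had one and 0% lay there. The chromosome 1 copy runs on the minus strand from 24611535 to 24616197 and carries 7 annotated pseudogenes. Gm28661 matched mt-Co2 over 681 bases, Gm10925 matched mt-Atp6 over 678 and Gm28437 matched mt-Co3 over 783, each at 100% identity. Gm29216 matched 483 bases of mt-Co1 at 99.8%. The copy of mt-Atp8 lies between annotated genes except for its end, which overlaps mt-Atp6 and lies in Gm10925.

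mt-Atp8 and mt-Atp6 are read from a single mRNA in different frames. The last 43 bases of mt-Atp8 are the first 43 of mt-Atp6, at chrM:7927-7969, and are shown with the mt-Atp6 start codon and the mt-Atp8 stop codon in capitals.
mt-Atp8 and mt-Atp6, shared bases: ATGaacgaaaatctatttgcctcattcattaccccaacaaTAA
A read inside this stretch belongs to both genes. On the mitochondrial genome mt-Co3 begins at the last annotated base of mt-Atp6, and the junction at chrM:8595-8624 is shown with the mt-Co3 start codon in capitals.
mt-Atp6 and mt-Co3, junction: tgataatacataATGacccaccaaactcat

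ANN codons made up 37.6% of mt-Atp6 (85 of 226) and 35.8% of mt-Atp8 (24 of 67). These shares were above 98.9% and 97.7% of 11538 nuclear coding sequences tested in RPF, whose median was 26.9%. They were not particular to complex V. Among the mitochondrial complex I mRNAs, mt-Nd2 (42.6%), mt-Nd5 (39.7%) and mt-Nd4 (39.0%) had higher shares. Those of mt-Nd3 (31.3%), mt-Nd4l (29.6%), mt-Nd1 (28.0%) and mt-Nd6 (23.3%) were lower. The other 4 members lay between the 23.9th and 79.7th percentiles, with 30.4% in mt-Co2, 30.2% in mt-Cytb, 25.9% in mt-Co1 and 23.4% in mt-Co3. The whole mt-Atp8 frame with its stop codon, chrM:7766-7969, is given with ANN codons in capitals, since it is the shortest member and can be shown entire.
mt-Atp8, coding sequence: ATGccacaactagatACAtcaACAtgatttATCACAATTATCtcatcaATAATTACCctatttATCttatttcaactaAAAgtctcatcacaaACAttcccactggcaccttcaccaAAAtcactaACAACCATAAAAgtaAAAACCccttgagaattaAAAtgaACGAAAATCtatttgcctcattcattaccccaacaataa

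The RPF libraries held 12.9 to 40.3 M counts and the total RNA libraries 46.7 to 81.1 M (M, counts in units of 1e6). Osgep stood at 13.9, 15.7 and 15.3 CPM (counts scaled to 1e6 per library) of total RNA in shCtr and at 0.589, 6.92 and 6.77 in shOSGEP (replicates 1, 2 and 3), and at 7.71, 7.26 and 4.70 against 4.86, 3.80 and 2.35 CPM in RPF. It was lower in shOSGEP in every pair of the same replicate number, with the lowest RNA level in replicate 1. In pairs 1, 2 and 3, shOSGEP held 4.25%, 44.0% and 44.4% of its control's Osgep level in RNA and 63.1%, 52.3% and 50.1% in RPF. Pair 1 thus had the largest drop in RNA and the smallest in RPF. The fitted log2 difference of Osgep was −1.65 for total RNA (SE 0.77, edgeR adjusted p 0.975) and −0.84 for RPF (SE 0.39, edgeR adjusted p 0.9998). The shOSGEP replicate 1 stood apart in other ways too. A single ribosomal RNA gene, CT010467.1, took 67.5% of its RPF counts, against 44.2% in shCtr replicate 1 and 26.1 to 33.7% in the other 4 libraries. Of all 13529 genes tested in RPF, 14.4% were lower by more than 1 on the log2 scale in pair 1. The 7 melanocyte markers were detected in all 12 libraries, and their median difference in total RNA was −2.16, −0.36 and 0.06 in pairs 1, 2 and 3. Col1a1, a fibroblast marker, was at 15.3 CPM in total RNA of shOSGEP replicate 1 and 0.537 to 2.69 CPM in the other 5. Its rise was not confined to that replicate, since Col1a1 was higher in shOSGEP in every pair in both assays. In RPF it was at 0.562, 0.363 and 0.280 CPM in shCtr and at 5.85, 0.649 and 1.27 CPM in shOSGEP. Pdgfra, also a fibroblast marker, was at 8.64 CPM in total RNA of shOSGEP replicate 1 and 3.24 to 5.37 CPM elsewhere. In RPF Pdgfra was highest in replicate 3 of both groups. The leukocyte, endothelial and keratinocyte markers stayed at or below 0.51 CPM in all 12 libraries. The part of these features in the members' values was not tested, and results that rest on replicate 1 are given with and without it.

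All 6 members gave fewer footprints in shOSGEP in every replicate pair, and none of these differences passed the test. Counted together, they took 0.408%, 0.595% and 0.523% of all protein-coding RPF counts in shCtr and 0.0398%, 0.476% and 0.424% in shOSGEP. In total RNA their share was 1.59%, 2.07% and 1.64% in shCtr against 0.939%, 2.17% and 1.92% in shOSGEP. The footprint share was thus lower in all 3 pairs and the RNA share only in pair 1. In bulk cultures, fewer mitochondria or mitochondrial transcripts per cell and fewer ribosomes on each transcript give the same lower footprint count, and fewer cells of a type cannot be told apart from less RNA per cell.

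Complex III has a single mitochondrial subunit. mt-Cytb RPF were at 200.5, 437 and 288 CPM in shCtr replicates 1 to 3 and at 11.2, 216 and 229 CPM in shOSGEP. The groups overlapped, since shOSGEP replicates 2 and 3 lay above shCtr replicate 1, and shOSGEP replicate 1 held 5.59% of its control's level. The fitted log2 difference was −1.02 (SE 0.93, edgeR quasi-likelihood test, adjusted p 0.9998), and it was −0.48 without shOSGEP replicate 1. Its total RNA was at 3728, 4963 and 3729 CPM in shCtr and 1419, 5878 and 4299 CPM in shOSGEP, that is, lower in pair 1 and higher in pairs 2 and 3. The RPF to RNA ratio was 0.0538, 0.0880 and 0.0773 in shCtr and 0.00790, 0.0367 and 0.0533 in shOSGEP. These ratios did not overlap, although the highest shOSGEP value and the lowest shCtr value were almost equal.

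In complex IV, mt-Co1, which holds the oxygen-reducing centre, was the most abundant member in both assays. Its RPF were at 866, 1210 and 1111 CPM in shCtr and at 100.4, 1175 and 875 CPM in shOSGEP. Apart from replicate 1 the groups lay close together, and in pair 2 the shOSGEP library kept 97.1% of the control level. The fitted difference in RPF was −0.57 (SE 0.79), and it was −0.06 without shOSGEP replicate 1. Its total RNA was at 7765, 10772 and 7359 CPM against 5311, 10384 and 8656 CPM. The ratio was 0.112, 0.112 and 0.151 in shCtr and 0.0189, 0.113 and 0.101 in shOSGEP. It was the one member whose ratio was not lower in all 3 pairs, with a log2 difference of 0.01 in pair 2.

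mt-Co2, which takes electrons from cytochrome c, had RPF at 137, 295 and 145 CPM in shCtr and at 14.9, 154 and 118 CPM in shOSGEP. Its total RNA was at 553, 687 and 648 CPM against 263, 595 and 691 CPM. The groups overlapped in both. The fitted difference in RPF was −1.004 (SE 0.78), and −0.51 without shOSGEP replicate 1 and −0.56 without shCtr replicate 2. The ratio was 0.247, 0.429 and 0.223 in shCtr and 0.0567, 0.258 and 0.171 in shOSGEP.

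mt-Co3, the remaining core subunit of complex IV, had RPF at 77.2, 117 and 61.3 CPM in shCtr and at 6.43, 54.4 and 36.6 CPM in shOSGEP. All 3 shOSGEP libraries lay below all 3 controls. The fitted difference, −1.38 (SE 0.70, edgeR unadjusted p 0.088, adjusted p 0.9998), had the smallest p of the 6 in RPF, and it was −0.91 without shOSGEP replicate 1. Its total RNA was at 983, 1488 and 1169 CPM against 476, 1285 and 1274 CPM and overlapped. The ratio was 0.0785, 0.0783 and 0.0525 in shCtr and 0.0135, 0.0423 and 0.0287 in shOSGEP, again without overlap.

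In complex V, mt-Atp6 RPF were at 226, 178 and 170.1 CPM in shCtr and at 11.2, 107 and 119.5 CPM in shOSGEP, which did not overlap. In pair 1 the shOSGEP library held 4.97% of its control's level, which made mt-Atp6 the 59th lowest of 13529 genes in that pair. The fitted difference in RPF was −1.27 (SE 0.76), and −0.77 without shOSGEP replicate 1. Its total RNA was at 989, 1480 and 1251 CPM in shCtr and 313, 1568 and 1513 CPM in shOSGEP. The ratio was 0.228, 0.120 and 0.136 in shCtr and 0.0358, 0.0682 and 0.0790 in shOSGEP, with no overlap.

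mt-Atp8 had by far the fewest footprints. Its RPF counts were 58, 216 and 173 in shCtr and 8, 186 and 63 in shOSGEP, which is 3.26, 13.1 and 3.46 CPM against 0.659, 5.75 and 1.63 CPM. Its total RNA was at 524, 671 and 628 CPM in shCtr and 306, 1145 and 858 CPM in shOSGEP, so that it had the highest shOSGEP to shCtr level in RNA of the 6 in pairs 2 and 3. The ratio was 0.00622, 0.0195 and 0.00551 in shCtr and 0.00216, 0.00502 and 0.00190 in shOSGEP. The groups did not overlap in the ratio, and the pair differences of −1.41, −1.95 and −1.50 on the log2 scale were more even than those of any other member. The fitted difference in RPF was −1.27 (SE 0.88), and it was −0.84 without shOSGEP replicate 1, −0.32 without shCtr replicate 2 and −2.48 without shOSGEP replicate 2. In the ratio it was −1.58 (SE 1.02), and it was −1.54, −0.70 and −2.37 without the RPF and total RNA libraries of these replicates in turn. shCtr replicate 2 was the highest library of mt-Atp8 in RPF. The mt-Atp8 values rest on few counts: the 8 fragments of shOSGEP replicate 1 are 0.236% of the mitochondrial mRNA footprints there, with a 95% Wilson interval of 0.120 to 0.466% that covers counting error only.

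**Figure D1:**
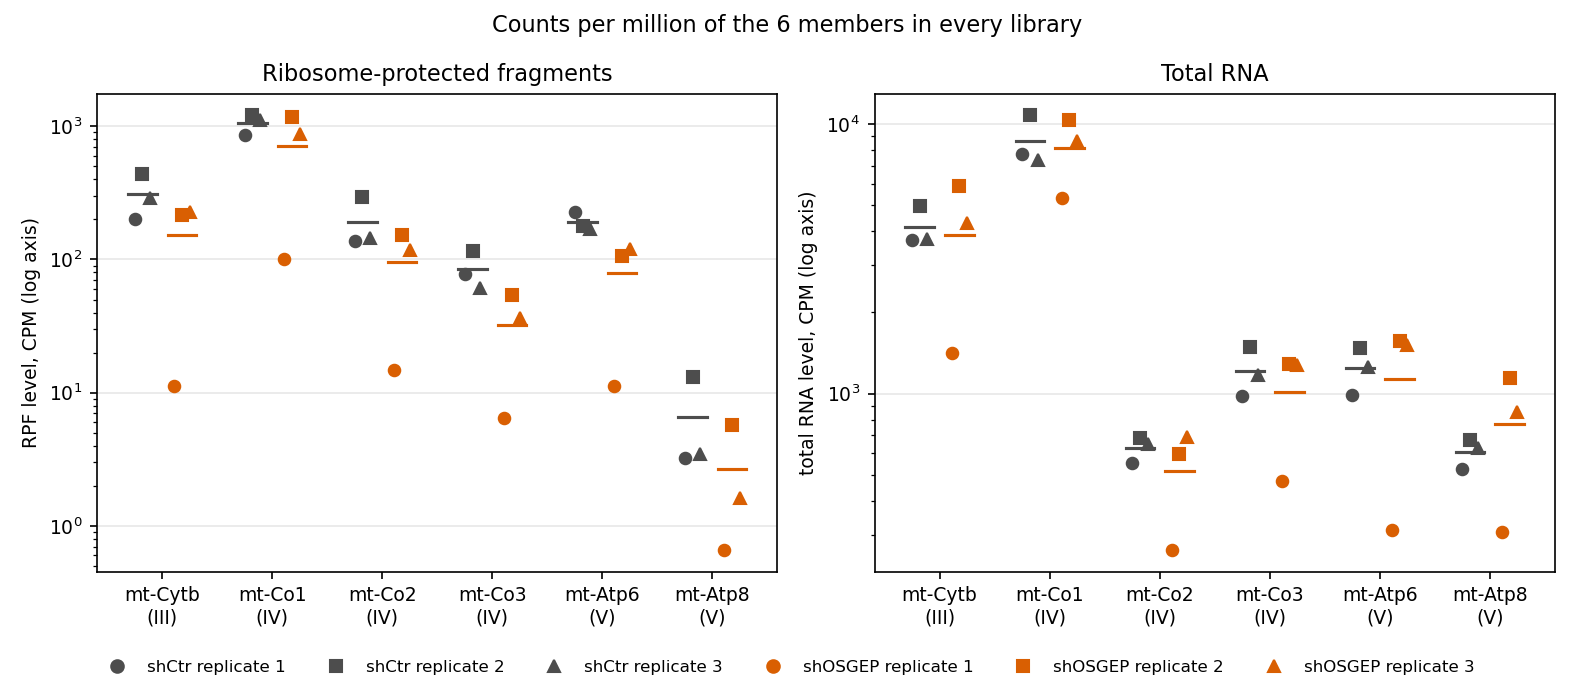
Level of each member in CPM on log axes, in RPF (left) and total RNA (right), for the 3 shCtr (grey) and 3 shOSGEP (orange) libraries, with the replicate given by the symbol and the group mean by a bar. shOSGEP replicate 1 is the lowest library for every member in both panels, and only mt-Co3 and mt-Atp6 in RPF show groups without overlap.

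Across the 6 members, RPF were lower in shOSGEP in 3 of 3 pairs for 6 of 6, where 15.2% of the 13529 genes tested had that pattern. Groups did not overlap, with shOSGEP lower, for 2 of 6 members in RPF, where 2.64% of genes had it. In the ratio, 5 of 6 members were lower in all pairs (11.2% of 12560 genes) and 4 of 6 had groups without overlap (2.31%), namely mt-Cytb, mt-Co3, mt-Atp6 and mt-Atp8. The ratio was also lower in all pairs for each of the 7 mitochondrial complex I mRNAs and the 2 mitochondrial rRNAs. Of these, mt-Nd1 and mt-Nd2 had groups without overlap. In total RNA 0 of 6 members had groups without overlap, where 3.09% of 14516 genes did with shOSGEP lower, and 0 of 6 were lower in all pairs (16.2%). In pair 1 alone, 6 of 6 members were lower by more than 1 on the log2 scale in RPF (14.4% of genes), 4 of 6 in total RNA (11% of genes) and 6 of 6 in the ratio (4.94% of genes). The members share their transcripts, their organelle and, for some, their reads, so that they are not independent of one another.

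The tests did not call any of them. With edgeR's quasi-likelihood test at an adjusted p of 0.05, 0 of 6 members and 0% of genes were called in each of RPF, total RNA and the ratio (translational efficiency), and 0 of 6 had an unadjusted p below 0.05, where 0.273%, 0.262% and 0.0637% of genes did with a lower value in shOSGEP. With DESeq2, 0 of 6 were called and 1, mt-Co3 in RPF, had an unadjusted p below 0.05 (0.042), where 0.436% of genes did with a lower value. With the replicate number as a block in edgeR, 0 of 6 were called in RPF or total RNA. The unadjusted p was below 0.05 for 2 of 6 in RPF (mt-Co3 and mt-Atp8, smallest p 0.0065, 1.52% of genes). For the ratio the block was the cell sample, which joins the RPF and total RNA libraries of the same genotype and replicate number. It does not pair shOSGEP with shCtr. With it 0 of 6 were called, and the edgeR unadjusted p was below 0.05 for 3 of 6 (mt-Co3, mt-Atp6 and mt-Atp8, smallest p 0.0095, 0.247% of genes). Without a filter on low counts, 5 of 6 members had an unadjusted p below 0.05 in RPF (1.03% of genes) and 0 of 6 were called. In the main fit, which has no block, RPF differences ran from −0.57 to −1.38 with standard errors of 0.70 to 0.93. None of these was as large as 2 standard errors. With the replicate number as a block they were −1.43 for mt-Atp8 (SE 0.34), −1.72 for mt-Co3 (SE 0.60) and −1.09 for mt-Co1 (SE 0.69). Of the 6, only mt-Co1 was then within 2 standard errors, although the edgeR unadjusted p was below 0.05 only for mt-Co3 and mt-Atp8. The RPF differences of the main fit were below 0 for 6 of 6 members (45.1% of genes) and below −1 for 5 of 6 (1.37% of genes). The latter count was 0 of 6 without shOSGEP replicate 1, 1 of 6 without replicate 1 of both genotypes and 2 of 6 without shCtr replicate 2. Fitted total RNA differences ran from −0.29 for mt-Co2 to 0.34 for mt-Atp8, with 5 of 6 below 0 (46.9% of genes) and 0 of 6 below −1 (0.572% of genes). Without shOSGEP replicate 1, 0 of 6 were below 0 in total RNA, and without shCtr replicate 2, 2 of 6 were. Fitted ratio differences ran from −0.48 for mt-Co1 to −1.58 for mt-Atp8, with 6 of 6 below 0 (49.5% of genes) and 3 of 6 below −1 (0.868% of genes), a count that was 2 of 6 without shOSGEP replicate 1 or without shCtr replicate 2. The median over the 6 was −1.14 in RPF, −0.12 in total RNA and −1.02 in the ratio, beside medians over all genes tested of 0.05, 0.02 and 0.00. Without shOSGEP replicate 1 these medians over the 6 were −0.64, 0.21 and −0.88, and without shCtr replicate 2 they were −0.63, 0.04 and −0.72.

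Summed per complex, the pattern by pair was similar. The RPF sum of complex III stood at 200.5, 437 and 288 CPM against 11.2, 216 and 229 CPM, as for its single member. For complex IV it was 1080, 1621 and 1317 CPM in shCtr and 122, 1383 and 1030 CPM in shOSGEP, with a ratio to RNA of 0.116, 0.125 and 0.144 against 0.0201, 0.113 and 0.0970. mt-Co1 made up most of that sum. For complex V it was 229, 191 and 174 CPM against 11.9, 113 and 121 CPM, with a ratio of 0.151, 0.0887 and 0.0924 against 0.0192, 0.0416 and 0.0511. The ratio of sums was lower in shOSGEP in all 3 pairs for each complex, and the groups did not overlap for any of the 3 complexes. The sums of the 7 mitochondrial complex I mRNAs gave the same pattern. Their ratio was 0.101, 0.121 and 0.110 in shCtr and 0.0318, 0.0896 and 0.0920 in shOSGEP.

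As medians of members per pair, the log2 difference in RPF was −4.15, −1.02 and −0.33 for complex III, −3.19, −0.94 and −0.34 for complex IV, and −3.26, −0.95 and −0.78 for complex V. In total RNA it was −1.39, 0.24 and 0.21 for complex III, −1.05, −0.21 and 0.12 for complex IV, and −1.22, 0.43 and 0.36 for complex V. Pair 1 was thus low in both assays, while in pairs 2 and 3 RPF were lower with RNA near or above the control. In the ratio the 3 pairs gave −2.76, −1.26 and −0.54 for complex III, −2.52, −0.73 and −0.58 for complex IV, and −2.04, −1.38 and −1.14 for complex V. Complex V had the lowest of these ratio differences in pairs 2 and 3 and the smallest drop in pair 1, and a difference between complexes was not tested.

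**Figure D2:**
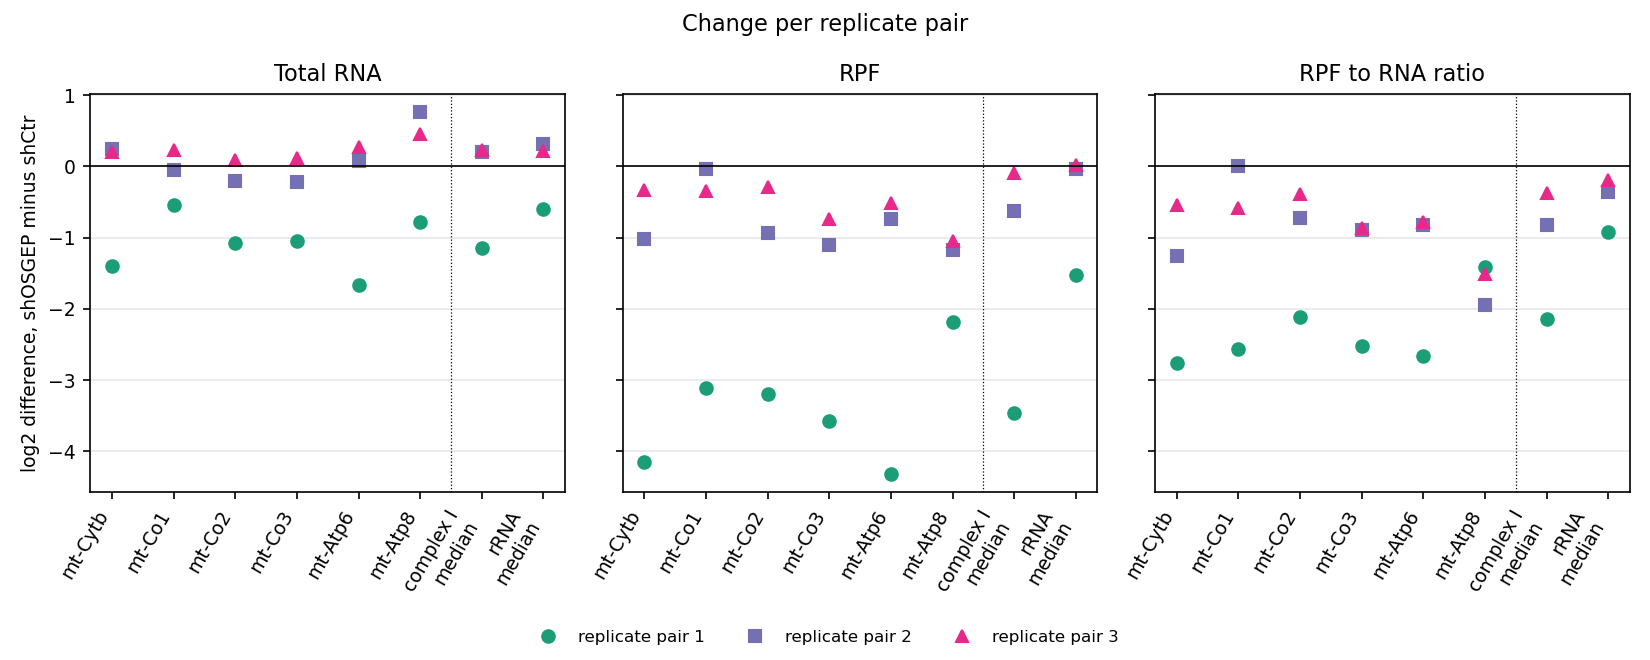
Difference in log2 CPM between the shOSGEP and shCtr library of each replicate number, for each member, the median of the 7 mitochondrial complex I mRNAs and the median of the 2 mitochondrial rRNAs, in total RNA, RPF and their ratio. RPF of all 6 members lie below 0 in all pairs, with pair 1 between −2.19 and −4.32, and the rRNA median in RPF lies at 0.02 to −1.53.

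The closest comparison was with the other mRNAs of the same genome. The 7 complex I mRNAs had a median RPF difference of −3.46, −0.62 and −0.10 by pair and a median ratio difference of −2.14, −0.82 and −0.37, beside −3.38, −0.98 and −0.43 and −2.54, −0.85 and −0.68 for the 6 members. Their fitted median was −0.70 in RPF, and the fitted values of the 7 (−1.08 to −0.13) and of the 6 overlapped. Whether the 2 sets differ was not tested. The 2 mitochondrial rRNAs, which are structural RNAs of the mitochondrial ribosome, differed less, with −1.53, −0.04 and 0.02 in RPF. The rRNA reads in RPF are not footprints of translation.

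Among the 13 mitochondrial mRNAs, the members made up 62.2%, 57.8% and 62.5% of RPF counts in shCtr and 51.9%, 55.1% and 56.6% in shOSGEP. In total RNA they made up 61.7%, 59.6% and 60.4% against 65.7%, 57.2% and 60.04%. The RPF shares did not overlap, and the total RNA shares did. A complex I mRNA, mt-Nd6, differed alongside: it took 12.8%, 12.04% and 14.5% of these RPF counts in shCtr and 30.4%, 19.8% and 15.9% in shOSGEP, but only 0.535 to 0.935% of those in total RNA. With mt-Nd6 left out of the total, the members' RPF share was 71.3%, 65.7% and 73.1% in shCtr and 74.6%, 68.7% and 67.2% in shOSGEP, and the groups overlapped. mt-Nd6 is the single mRNA encoded on the opposite strand. Whether the counting kept strands apart, and how RNA was selected for the total RNA libraries, is not given in the sources used here.

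Within the mitochondrial mRNAs, mt-Co1 kept the largest RPF share, 35.3% ± 3.97 in shCtr and 36.5% ± 1.09 in shOSGEP (SD, n = 3 each). mt-Cytb had 9.87% ± 1.499 and 6.79% ± 2.69, and mt-Atp6 had 6.62% ± 2.43 and 4.12% ± 0.735. mt-Co3 had 3.18%, 2.997% and 2.15% in shCtr and 2.30%, 1.75% and 1.501% in shOSGEP. For mt-Co3 each shOSGEP share was lower than that of its pair, but the groups overlapped.

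**Figure D3:**
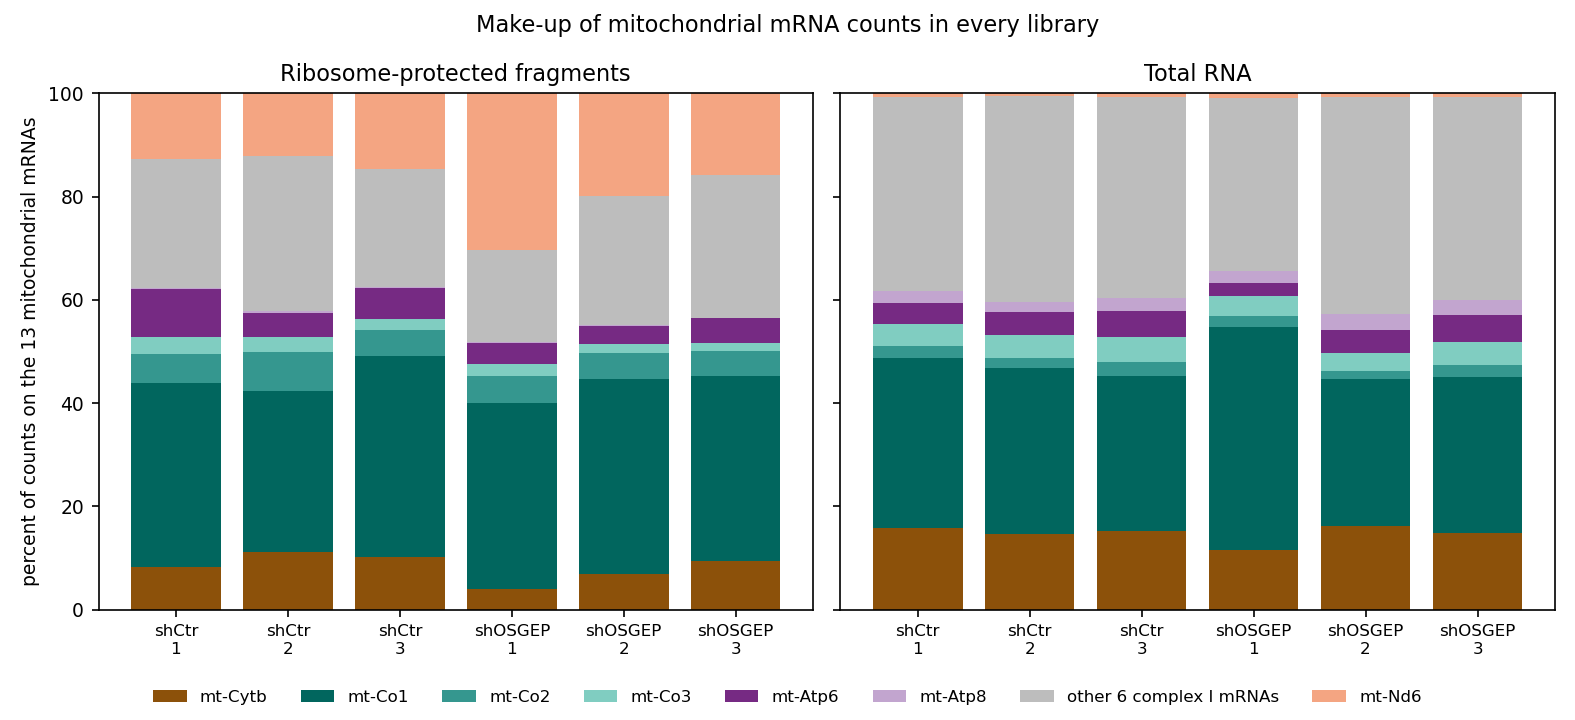
Percent of the counts on the 13 mitochondrial mRNAs that fell on each member, on mt-Nd6 and on the other 6 complex I mRNAs, in each RPF library (left) and total RNA library (right). The members' RPF total is 57.8 to 62.5% in shCtr and 51.9 to 56.6% in shOSGEP, while mt-Nd6 reaches 30.4% in shOSGEP replicate 1.

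Per kilobase of annotated length, the RPF levels in shCtr ran from mt-Co1 (688 ± 115 CPM per kb, SD, n = 3) through mt-Co2 (281 ± 130), mt-Atp6 (281 ± 44.3) and mt-Cytb (270 ± 104) to mt-Co3 (108 ± 36.3) and mt-Atp8 (32.3 ± 27.5). mt-Co2, mt-Atp6 and mt-Cytb overlapped and could not be ordered, while mt-Co1 lay above them and mt-Co3 and mt-Atp8 below in all 3 replicates. In shOSGEP the means kept mt-Co1 first (464 ± 359) and mt-Co3 (41.4 ± 30.9) and mt-Atp8 (13.1 ± 13.2) last, and every neighbouring pair overlapped. Total RNA per kb in shCtr was highest for mt-Co1 (5587 ± 1207 CPM per kb), then mt-Cytb (3619 ± 623), mt-Atp8 (2979 ± 370), mt-Atp6 (1821 ± 361), mt-Co3 (1548 ± 326) and mt-Co2 (920 ± 101).

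The RNA order also depends on how reads were assigned: the annotated copies on chromosome 1 took more total RNA counts than several of the members themselves. In the 6 total RNA libraries, Gm28661 held 2.55 to 5.81 times the count of mt-Co2, Gm10925 1.94 to 3.04 times that of mt-Atp6, and Gm28437 1.36 to 2.15 times that of mt-Co3. In shCtr replicate 1, for instance, Gm28661 had 115812 counts and mt-Co2 had 32522. In the 6 RPF libraries the same 3 copies had 0 counts each, while mt-Co2 had 181 to 7240. Gm29216 took 331 to 1925 RNA counts, at most 0.00376 of the count of mt-Co1, and 0 in RPF. Since the sequences are identical, reads cannot be assigned to the mitochondrial or the nuclear copy, and the deposited tables placed them differently in the 2 assays. The study's methods speak of perfect and unique matches for footprints on coding transcripts, but whether that step made the deposited RPF table, which also counts rRNAs and tRNAs, is not given in the sources used here, nor is the handling of multiple matches in total RNA.

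With the copies' counts added, in an alternative chosen after the data were seen, the RNA order in shCtr became mt-Atp6 (6089 ± 1533 CPM per kb), mt-Co1 (5598 ± 1201), mt-Co2 (4404 ± 1466), mt-Co3 (4334 ± 1433), mt-Cytb (3619 ± 623) and mt-Atp8 (2979 ± 370), with overlap between all neighbours. mt-Co2 thereby moved from the lowest RNA level to the third. Its ratio in shCtr went from 0.300 ± 0.112 to 0.0622 ± 0.00830, that of mt-Atp6 from 0.161 ± 0.0584 to 0.0491 ± 0.0197, and that of mt-Co3 from 0.0698 ± 0.0150 to 0.0252 ± 0.00445, while mt-Co1 stayed at 0.125. mt-Co2 thus had the highest ratio by its own row and mt-Co1 with the copies. mt-Atp8 was lowest either way (0.0104 ± 0.00786), and its copy has no annotated row of its own to add.

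The comparison of genotypes was little affected. With the copies added the fitted ratio difference was −0.73 for mt-Co2, −1.19 for mt-Atp6 and −1.09 for mt-Co3, beside −0.72, −1.14 and −1.12 by their own rows. The ratio of mt-Co2 was then 0.0542, 0.0708 and 0.0616 in shCtr and 0.0151, 0.0379 and 0.0482 in shOSGEP, and no longer overlapped.

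**Figure D4:**
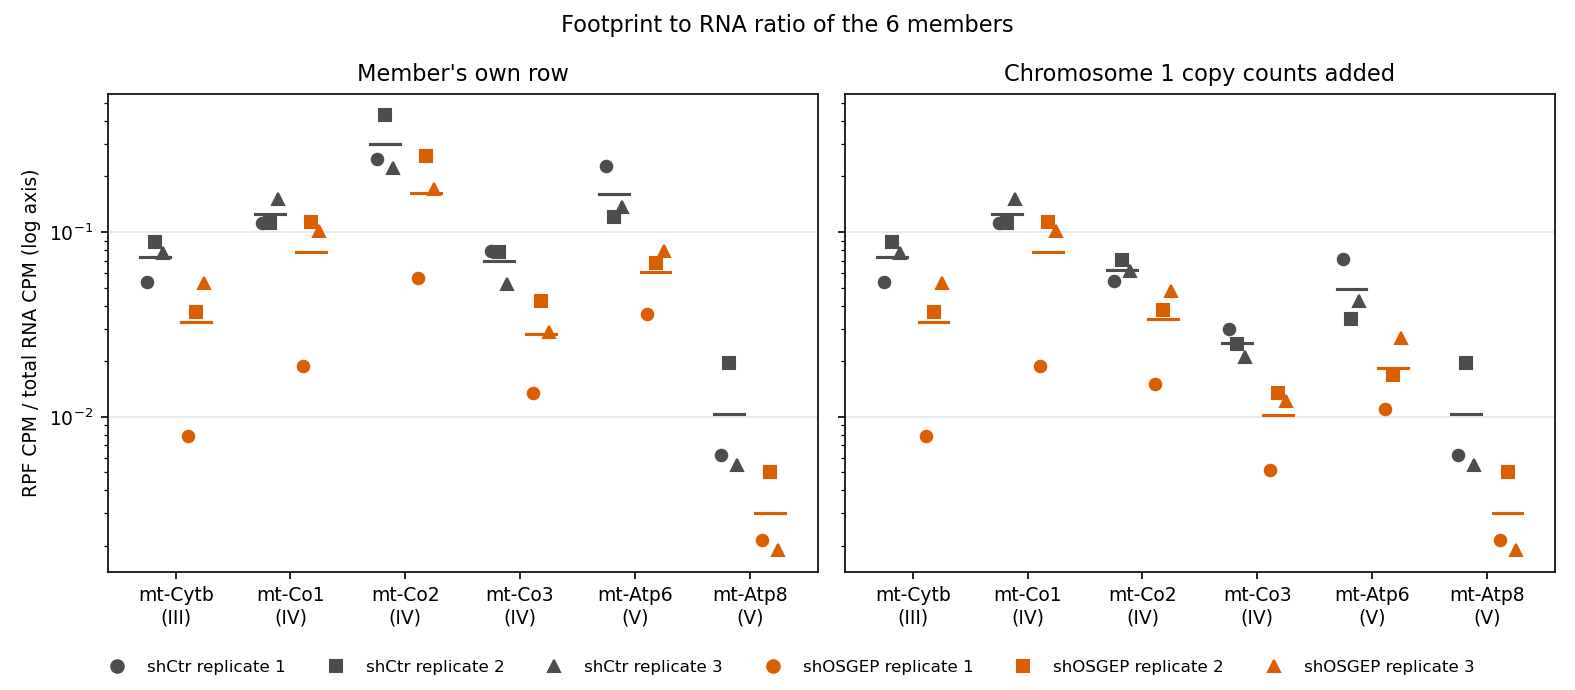
RPF CPM over total RNA CPM of each member per replicate on a log axis, from the member's own row (left) and with the counts of its annotated chromosome 1 copy added (right); bars are group means. mt-Co2, mt-Co3 and mt-Atp6 move down on the right while the order of shCtr and shOSGEP stays.

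The ratio depends on the scaling of each assay, so its level compares members and groups but has no absolute meaning. Scaled to nuclear protein-coding counts instead of TMM library sizes, the shCtr mean of mt-Cytb was 0.184 in place of 0.0731. Differences between the genotypes moved little: the RPF median over the 6 members was −3.37, −0.91 and −0.37 by pair, beside −3.38, −0.98 and −0.43.

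Leaving out replicate 1 of both genotypes kept the fitted RPF difference below 0 for 6 of 6 members, from −0.19 for mt-Co1 to −1.16 for mt-Atp8, and the ratio difference from −0.25 for mt-Co1 to −1.77 for mt-Atp8. In total RNA the fitted differences then ran from −0.06 for mt-Co2 and mt-Co3 to 0.61 for mt-Atp8, and 0 of 6 members were called in any of the 3.

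Nuclear subunits of the same complexes are made by cytosolic ribosomes and imported. The 35 nuclear subunits of complexes III, IV and V had 14 members below 0 and 21 above in fitted RPF, with a median of 0.04 and 0 called, and medians of 0.30, −0.21 and −0.35 by pair. Among complex III subunits the smallest unadjusted p in RPF belonged to Uqcrq (0.77, SE 0.83) and Uqcr11 (−0.26, SE 0.43). Among complex IV subunits it belonged to Ndufa4 (0.19, SE 0.37) and Cox5b (0.21, SE 0.47), and among complex V subunits to Atp5k (0.35, SE 0.36) and Atp5g2 (−0.64, SE 1.06). Atp5g2, a gene for the membrane ring of ATP synthase, was at 19.5 to 25.4 CPM in 5 RPF libraries and at 0.247 CPM in shOSGEP replicate 1, with total RNA there of 246 CPM. In total RNA 19 of the 35 were below 0 and 16 above, with a median of −0.01.

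Assembly factors build the subunits into complexes. Of 27 listed for complexes III, IV and V, 10 were below 0 and 17 above in fitted RPF, with a median of 0.12 and 0 called. By name, those with the smallest unadjusted p in each list were Lyrm7 (0.68, SE 0.77) and Uqcc2 (0.41, SE 0.55) for complex III, Cox14 (0.69, SE 0.52) and Coa5 (−0.27, SE 0.24) for complex IV, and Tmem70 (−0.22, SE 0.29) and Atpaf1 (−0.06, SE 0.31) for complex V.

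The machinery that makes and reads mitochondrial RNA gave RPF medians near that of all genes (0.05), apart from the tRNA modification genes. The 13 genes of mitochondrial translation had 6 below 0 and 7 above in RPF with a median of 0.00, and were led by Mtfmt (0.60, SE 0.46), which formylates the initiator methionine, and Gfm2 (0.28, SE 0.27), a ribosome recycling factor. The 19 genes of mitochondrial transcription and RNA handling had a median of 0.01, led by Mterf4 (0.50, SE 0.38) and Tefm (0.49, SE 0.49), the elongation factor of mitochondrial transcription. The 11 genes of mitochondrial tRNA modification had 3 below 0 and 8 above, with a median of 0.22, led by Yrdc (−0.36, SE 0.23), which makes the threonylcarbamoyl donor for both compartments, and Cdk5rap1 (0.62, SE 0.43). In each of these lists 0 genes were called in RPF, total RNA or the ratio. Osgepl1, named after its values were seen, had a fitted difference of 0.02 for its total RNA (SE 0.19) and 0.11 for its RPF (SE 0.48). Of 22 mitochondrial tRNAs 19 were tested in RPF, where reads of tRNAs are not footprints, and 17 of them were below 0 with a median of −0.53. The lowest unadjusted p there belonged to mt-Ts2 (−1.07, SE 0.64) and mt-Tg (−1.05, SE 0.68).

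**Figure D5:**
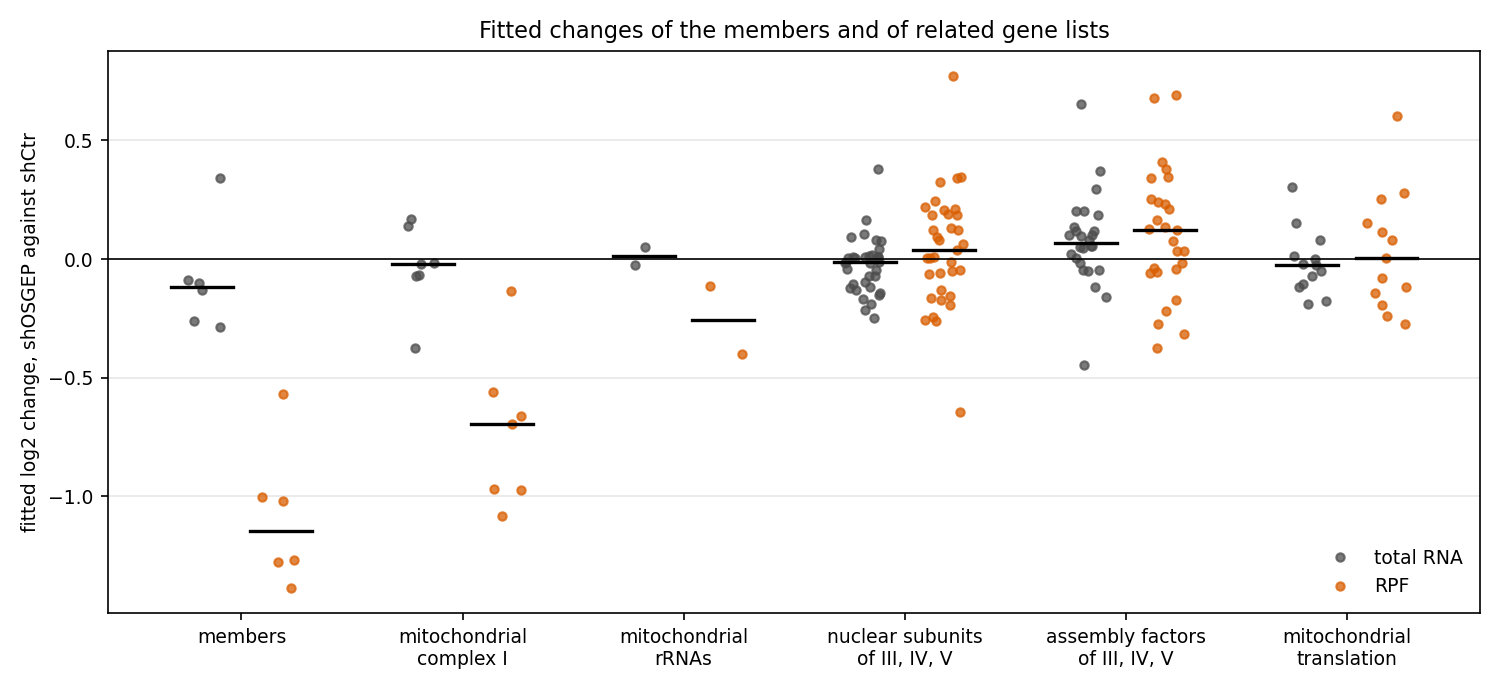
Fitted log2 difference between shOSGEP and shCtr for each gene of 6 lists, in total RNA (grey) and RPF (orange), with the median of each list as a bar. The members' RPF values lie between −0.57 and −1.38 and those of the 35 nuclear subunits of the same complexes between −0.64 and 0.77, and 0 genes were called in any list.

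The nuclear genes whose RPF profile was most like the mean of the members were Tpx2, a spindle assembly factor, Mob3b, Ttf2, Racgap1, a regulator of cytokinesis, and Fchsd2. Their Pearson r to the members' mean log2 CPM ran from 0.996 to 0.999 over 6 libraries, among 10166 genes compared. All 5 had their lowest value in shOSGEP replicate 1, as the members did: Tpx2, for example, was at 20.7 CPM there and at 56.0 to 90.7 CPM in the other 5 libraries. These 6 points share the spread that a single library sets.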

How the data were processed

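RPF and total RNA were measured in shCtr and shOSGEP B16F10 cells, 3 replicates each. The authors deposited raw counts per Ensembl gene for each assay. Per the labels, their processing notes name FastQC 0.11.9, Trim Galore 0.6.6, cutadapt and STAR, with both GRCm38 and GRCm39. For footprints the methods describe perfect matches to coding transcripts and report unique ones, but the deposited RPF table also counts rRNAs, tRNAs and pseudogenes. The study's STAR and Salmon workflow is described for RNA-seq data held elsewhere. Which counting step, strand setting and rule for multiple matches made these 2 tables is not given in the sources used here. Nor is the library kit of the total RNA samples, and with it the way RNA was selected. Of the 55487 identifiers, 55141 were found in GENCODE M21 (GRCm38), which gave names, lengths and sequences.

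Counts were filtered with filterByExpr, scaled by TMM and fitted with edgeR 4.0.16 quasi-likelihood models, separately for each assay. Translational efficiency was the assay by genotype interaction over all 12 libraries. Standard errors of edgeR fits are the absolute fitted difference over the square root of its quasi-likelihood F. Benjamini-Hochberg adjustment ran over all genes tested, with a threshold of 0.05. CPM are per TMM-scaled library size, and the RPF to RNA ratio divides them. Pair differences used log2 CPM with a prior count of 2. DESeq2 1.42.0 was an alternative. Mitochondrial windows of 30 bases were searched exactly, on both strands, in the nuclear chromosomes of GRCm38.

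Replicate numbers come from the sample titles. Within each assay, the 2 libraries that share a number deviated together, with correlations for replicates 1, 2 and 3 of 0.59, 0.51 and 0.66 (RPF) and 0.52, 0.54 and 0.29 (total RNA), so the numbers were taken to pair the samples. Per the methods, transductions for all experiments were independent and made in triplicate, and transduced cells were selected with puromycin. Named genes are the 6 members, the pair with the smallest RPF p in each list, and the 5 nuclear genes most correlated with the members. The members and lists were chosen with earlier results of these data known.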

Additional observations from a re-analysis of the deposited data

How the results depend on the processing

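The count of members called stayed at 0 of 6 in RPF, total RNA and translational efficiency under every alternative run. Fitting the replicate number as a block (replicate block) changed no call: the RPF differences were −1.71 (mt-Cytb), −1.09 (mt-Co1), −1.42 (mt-Co2), −1.72 (mt-Co3), −1.69 (mt-Atp6) and −1.43 (mt-Atp8), with a smallest edgeR adjusted p of 0.817. For translational efficiency the block was the cell sample of each genotype and replicate number. The differences were then −1.46, −0.997, −1.05, −1.40, −1.41 and −1.59 in the same order. All RPF and translational efficiency differences stayed below 0. Leaving out 1 replicate of 1 genotype removes 1 library from each assay, and so its RPF and its total RNA library from the translational efficiency fit. The RPF differences then ran from −1.44 to −0.48 (mt-Cytb), −1.13 to −0.06 (mt-Co1), −1.53 to −0.51 (mt-Co2), −1.98 to −0.91 (mt-Co3), −1.69 to −0.77 (mt-Atp6) and −2.48 to −0.32 (mt-Atp8). Over the 6, those in translational efficiency ran from −2.37 to −0.19. In total RNA the range was −0.54 to 0.29 (mt-Cytb), −0.31 to 0.13 (mt-Co1), −0.57 to 0.022 (mt-Co2), −0.48 to 0.068 (mt-Co3), −0.45 to 0.30 (mt-Atp6) and −0.068 to 0.71 (mt-Atp8). Without a low-count filter, 229 of 33633 genes were called in RPF, none of them a member, against 0 in the main analysis, and 5 members had an unadjusted p below 0.05, as did 1.03% of genes with a lower value (smallest edgeR adjusted p of a member 0.106). DESeq2 called 1 gene in RPF and 8 in total RNA. Requiring 10 counts in every library left out mt-Atp8 in RPF and translational efficiency.

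The sign of the total RNA difference turned for several members. Without shCtr replicate 2 it was 0.057 for mt-Cytb, 0.11 for mt-Co1 and 0.019 for mt-Atp6. Without shOSGEP replicate 1 it was 0.29 for mt-Cytb, 0.13 for mt-Co1, 0.022 for mt-Co2, 0.068 for mt-Co3 and 0.30 for mt-Atp6. Without shOSGEP replicate 2 it was −0.068 for mt-Atp8. Without replicate 1 of both genotypes, added after seeing the data, it was 0.22 for mt-Cytb, 0.060 for mt-Co1 and 0.16 for mt-Atp6. Each of these fits was filtered, scaled and adjusted anew on the libraries that remained, so the genes tested also differ from those of the full analysis.

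Ratio levels followed the scaling. With library sizes of nuclear protein-coding counts, the means in shCtr and shOSGEP were 0.184 and 0.0858 for mt-Cytb, 0.315 and 0.203 for mt-Co1, 0.751 and 0.422 for mt-Co2, 0.174 and 0.0730 for mt-Co3, 0.403 and 0.158 for mt-Atp6, and 0.0260 and 0.00773 for mt-Atp8. With the chromosome 1 copies added they were 0.0622 and 0.0337 for mt-Co2, 0.0252 and 0.0103 for mt-Co3, and 0.0491 and 0.0183 for mt-Atp6. The members' mean share of mitochondrial mRNA counts was 70.1% and 70.2% in RPF with mt-Nd6 left out, and 67.2% and 66.7% in total RNA with the copies added, both added after seeing the data. Depth limits mt-Atp8 most, with 8 to 216 RPF counts.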
